A study of Mus musculus with 6 samples.

Results

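The genes described here encode the enzymes that take pyruvate into mitochondria, oxidise it to acetyl-CoA and burn the acetyl group in the tricarboxylic acid (TCA) cycle, together with the kinases and phosphatases that switch pyruvate oxidation off and on. They were chosen by name, as every array probe whose annotated symbol is 1 of 33 listed genes. The array carried 57 such probes for 31 of the 33 genes, out of 45267 probes in all and 19056 genes with a named probe, and had no probe under the symbols Mpc1 and Mpc2, the subunits of the mitochondrial pyruvate carrier. RNA was measured in brown fat, a depot that makes heat, of Cd36 null and of wild type mice. All mice were males of 3 months, labelled C57BL6J and fasted overnight in clean cages, so both genotypes share the fast and no fed group was analysed here. Cd36 encodes a membrane protein for the uptake of long-chain fatty acids. Each genotype was hybridised to 3 Illumina bead arrays of 1 colour. The labels do not say whether the 3 samples of a genotype came from separate or pooled animals, so the p-values reflect only the scatter among these samples, part of which may be technical.

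Pyruvate from glycolysis enters the mitochondrial matrix through its carrier and is oxidised by the pyruvate dehydrogenase complex, a step that cannot be reversed in animal cells. Pyruvate dehydrogenase kinases inactivate the complex by phosphorylation, and its phosphatases reactivate it. In fasting, a rise of the kinase Pdk4 in many tissues is known to spare glucose while fatty acids supply acetyl-CoA. Brown fat is rich in mitochondria, and its TCA cycle feeds electrons to the respiratory chain that Ucp1 uncouples.

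Few members of the pathway differed between the genotypes beyond the spread of the arrays, and the 2 probes that passed were lower in Cd36 null tissue. Of the 33 genes, 28 had a probe that could be tested, meaning a detection p under 0.05 on at least 3 of the 6 arrays. By each gene's brightest probe, 0 genes rose, 1 fell and 27 did not pass at an adjusted p under 0.05 (limma, Benjamini-Hochberg over 17912 probes). Among the 46 tested member probes, 0 were called higher, against a background of 5.36% of all tested probes, and 2 were called lower, or 4.35%, against 2.85%. At an unadjusted p under 0.05, 0 of the 46 were higher, against 11.2% of all tested probes. At that threshold 9 of the 46 were lower, a larger share than the 10.6% of all tested probes. Several of these 9 are repeat probes of Pdhb and Dlst, and probes of 1 gene are not independent. The 2 called probes belong to Pdk1, a pyruvate dehydrogenase kinase, and to Dlst, a subunit of the 2-oxoglutarate dehydrogenase complex whose other probes did not all go the same way.

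The sizes were small. Differences of the 28 genes, given throughout in log2 units as Cd36 null minus wild type, ran from -0.66 to 0.31, with 12 above 0, 16 below 0 and a median of -0.02. The median over all tested probes was -0.04. In absolute size the members' median difference was 0.15 and that of all tested probes 0.17. The 95% interval of the difference lay within 1 log2 unit of 0 for 27 of the 28 genes and within 0.5 for 17, so larger changes of those genes fall outside their intervals. Most of these transcripts were abundant: 18 of the 28 brightest probes were in the top 10% of tested probes by mean signal.

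**Figure D1:**
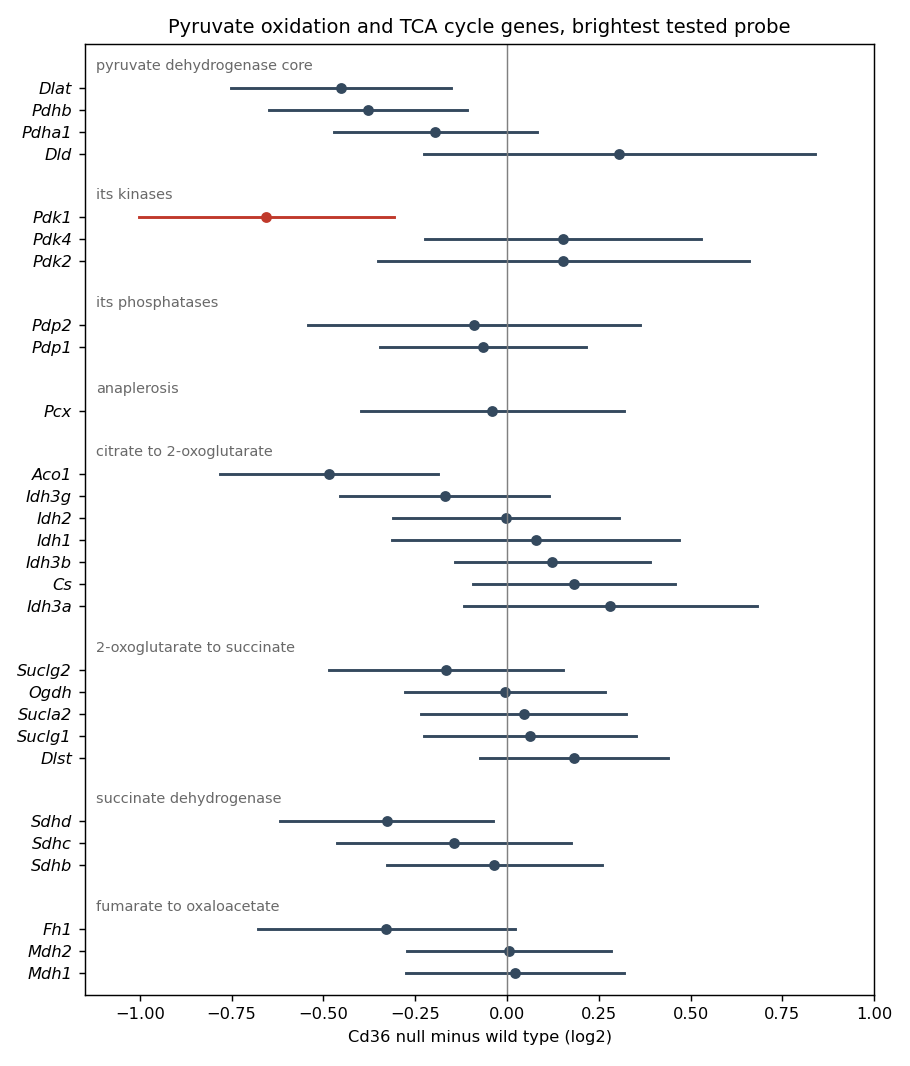
Difference between Cd36 null and wild type (log2, x axis) for the brightest tested probe of each of 28 genes, grouped by step. Points are differences, lines are 95% intervals from limma with 3 arrays per genotype, and Pdk1 in red, at -0.66, is the gene whose brightest probe passed an adjusted p of 0.05.

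Genotypes whose arrays do not overlap give a second view. In 10 of the 46 tested member probes (21.7%) every Cd36 null array lay below every wild type array, and in 3 (6.52%) every null array lay above. Over all tested probes the shares were 13.8% below and 13.6% above. The 10 lower probes came from 6 genes, since 3 of them belong to Dlst and 3 to Pdhb, and probes of 1 gene are not independent. The others were Pdk1, Aco1, Dlat and Sdhd. The 3 higher probes were Cs and both Dlst probes annotated to its RefSeq transcript.

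Of the sequences around the transcript starts of these genes, a pair is shown. They belong to the gene that passed and to the member whose window held the element of the estrogen-related receptors. These receptors bind near many mitochondrial genes. Each window runs from 250 bases before to 50 after a transcript start and is taken from RefSeq on GRCm38.p6. The capitals mark the element, searched as TCAAGGTCA on both strands.
Pdk1 (chr2:71872974-71873273, plus strand): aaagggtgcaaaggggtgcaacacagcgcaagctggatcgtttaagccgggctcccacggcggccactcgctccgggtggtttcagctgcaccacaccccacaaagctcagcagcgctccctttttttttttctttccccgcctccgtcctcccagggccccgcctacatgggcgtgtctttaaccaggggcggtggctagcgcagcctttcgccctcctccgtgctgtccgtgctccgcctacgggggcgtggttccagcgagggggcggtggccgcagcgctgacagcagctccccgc
Sdhd (chr9:50603800-50604099, minus strand): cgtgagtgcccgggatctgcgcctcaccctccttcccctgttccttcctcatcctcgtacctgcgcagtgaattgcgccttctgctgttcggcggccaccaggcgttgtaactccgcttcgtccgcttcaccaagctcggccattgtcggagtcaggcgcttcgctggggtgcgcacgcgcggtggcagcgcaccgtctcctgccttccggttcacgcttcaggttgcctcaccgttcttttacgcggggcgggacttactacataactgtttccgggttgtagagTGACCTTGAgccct

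The element began at base 287 of the Sdhd window, among the 50 bases after the transcript start, on the opposite strand to the letters searched. Of the 40 windows listed for 30 member genes, 1 held it (2.5%), against 0.423% of 32851 windows in all. The NRF1 site, GCGCATGCG, was found in 2 of the 40 (5%), both from Ogdh, against 1.75%. The short hypoxia response core ACGTG lay in 14 windows (35%) of 9 genes, against 19.6%, and was absent from the Pdk1 windows. Of those 14 windows 6 belong to Ogdh, several of them overlapping. Neither a PPAR element (AGGTCA repeated after a spacer of 1 base) nor the ATF4 element ATTGCATCA was found in a member window, against 0.0396% and 0.192% in all. These matches are descriptions of letters only.

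The pyruvate dehydrogenase complex joins a decarboxylase (Pdha1 and Pdhb), an acetyltransferase (Dlat), a binding protein (Pdhx) and a dehydrogenase shared with other complexes (Dld). Of these 5 genes, 4 could be tested, 0 rose, 0 fell and 4 did not pass, with a median difference of -0.29. Pdhb, Dlat and, with overlapping arrays, Pdha1 read lower without passing, and Dld read higher with a wide interval.

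Dlat had 9.53, 9.55 and 9.54 log2 on Cd36 null replicates 1 to 3, against 10.17, 10.03 and 9.78 on wild type replicates 1 to 3. All null arrays lay below all wild type arrays, by -0.45 ± 0.13 (SE), and the adjusted p was 0.0716. Pdhb, the beta subunit of the decarboxylase, had 13.33, 13.36 and 13.47 in null tissue, against 13.76, 13.87 and 13.68 in wild type tissue. The difference was -0.38 ± 0.12 (SE, adjusted p = 0.0916), and the groups did not overlap on this probe nor on its other probes, which differed by -0.37 and -0.50 (adjusted p = 0.189 and 0.134). Neither gene passed, although both crossed the threshold with array weights (adjusted p = 0.0167 for Dlat and 0.0222 for Pdhb) and without background correction (adjusted p = 0.0491 and 0.0441). Each was called in only 3 of 14 alternatives, and the adjusted p reached 0.223 for Dlat and 0.285 for Pdhb.

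Pdha1, the alpha subunit that carries the phosphorylation sites, had 13.58, 13.61 and 13.76 in null tissue, against 13.93, 13.87 and 13.72 in wild type tissue. Its groups overlapped, and the difference was -0.20 ± 0.12 (SE, adjusted p = 0.411). Dld had 9.44, 9.53 and 10.17 in null tissue, against 9.83, 9.38 and 9.01 in wild type tissue. That spread within each genotype left a difference of 0.31 with a 95% interval from -0.23 to 0.84. The only probe of Pdhx was detected on 0 of 6 arrays, so its level was not measured.

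Among the kinases Pdk1 fell, while Pdk4 and Pdk2 did not pass. Pdk1 had 9.30, 9.11 and 9.58 log2 on null replicates 1 to 3, against 9.82, 9.98 and 10.16 on wild type replicates 1 to 3. The null mean of 9.33 ± 0.24 lay below the wild type mean of 9.99 ± 0.17 (SD, n = 3 each), with no overlap. The fall was -0.66 ± 0.16 (SE, 95% interval -1.003 to -0.31, adjusted p = 0.0304 in limma). The call rests on few arrays: it ended without any 1 of wild type replicates 1, 2 and 3 or of null replicates 1 and 2 (adjusted p up to 0.118). The call also ended with neqc of the scanner values at an offset of 16 (adjusted p = 0.0615), where an offset of 50 comes close to the values used. It ended with median scaling (0.103) and with no filter on dim probes (0.127) as well. Across all alternatives the difference stayed between -0.78 and -0.55 and the adjusted p ran from 0.009 to 0.127.

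Pdk4, the kinase known to be induced by fasting, was among the bright probes, with 13.58, 13.45 and 13.88 in null tissue, against 13.63, 13.64 and 13.18 in wild type tissue. The groups overlapped, and the difference of 0.15 had a 95% interval from -0.22 to 0.53 (adjusted p = 0.666). Pdk2, a kinase expressed in most tissues, had 9.13, 9.86 and 9.93 in null tissue, against 9.26, 9.38 and 9.82 in wild type tissue. It also overlapped, with a difference of 0.15 ± 0.23 (SE, adjusted p = 0.761). Pdk3 was detected on 2 null arrays and on no wild type array, too few for the test, at 5.98, 6.11 and 6.12 in null tissue, against 6.05, 5.99 and 6.03 in wild type tissue. A difference between kinases in their response was not tested.

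**Figure D2:**
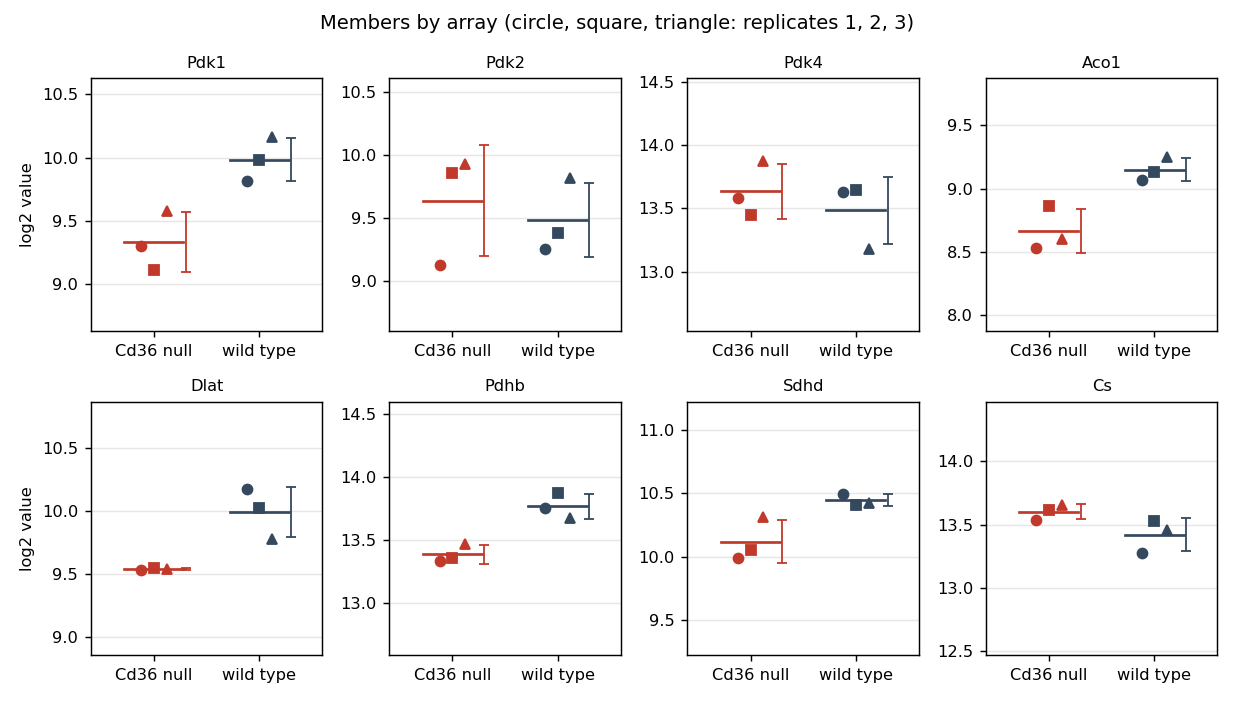
Log2 value (y axis, the same span in each panel) of 8 members on the 3 Cd36 null and the 3 wild type arrays, with group means as lines and SD as error bars. Pdk1, Aco1, Dlat, Pdhb and Sdhd lay lower on every null array, Cs lay higher on every null array, and Pdk2 and Pdk4 overlapped; Pdk1 alone of these passed an adjusted p of 0.05.

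The phosphatases did not pass. Pdp1, the calcium-sensitive form, was dim, with 6.55, 6.72 and 6.58 in null tissue, against 6.82, 6.61 and 6.61 in wild type tissue, and differed by -0.06 ± 0.13 (SE, adjusted p = 0.833). Pdp2 had 11.48, 10.65 and 10.75 in null tissue, against 11.04, 11.11 and 10.995 in wild type tissue. Null replicate 1 was the highest of the 6 arrays and null replicate 2 the lowest, on this probe and on both other tested probes of Pdp2. Its 3 tested probes differed by -0.09, 0.07 and 0.13 between the genotypes.

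Pcx, the pyruvate carboxylase that makes oxaloacetate to refill the cycle, had 10.27, 10.25 and 9.93 in null tissue, against 9.998, 10.11 and 10.46 in wild type tissue. The groups overlapped and differed by -0.04 ± 0.16 (SE, adjusted p = 0.92). A second Pcx probe, detected on 1 wild type array only, was not tested.

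From acetyl-CoA to 2-oxoglutarate, 7 of 7 genes were tested, 0 rose, 0 fell and 7 did not pass, with a median of 0.08. Cs, the citrate synthase that starts the cycle, had 13.54, 13.62 and 13.65 log2 in null tissue, against 13.28, 13.52 and 13.46 in wild type tissue. Every null array was above every wild type array, by only 0.18 ± 0.12 (SE, adjusted p = 0.442). Aco1, the cytosolic aconitase that also acts as an iron-sensing RNA-binding protein, read in the other direction, with 8.53, 8.86 and 8.60 in null tissue, against 9.07, 9.13 and 9.25 in wild type tissue. It was lower on every null array, by -0.48 ± 0.13 (SE), and missed the threshold at an adjusted p of 0.0546, passing with array weights (0.0397) and without background correction (0.0407). These were the only 2 of 14 alternatives that gave a call for Aco1, and its adjusted p reached 0.209.

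The NAD-linked isocitrate dehydrogenase is built from Idh3a, Idh3b and Idh3g. Idh3a, the catalytic subunit, had 13.19, 13.05 and 12.997 in null tissue, against 13.10, 12.90 and 12.39 in wild type tissue. Its groups overlapped, wild type replicate 3 being lowest, and a second probe differed by 0.30 beside 0.28 for the first (adjusted p = 0.603 and 0.411). Idh3g, a regulatory subunit, had 14.31, 14.43 and 14.53 in null tissue, against 14.71, 14.61 and 14.46 in wild type tissue, and its probes differed by -0.17 and -0.34 (adjusted p = 0.498 and 0.319). Idh3b, the other regulatory subunit, differed by 0.12 ± 0.12 (SE, adjusted p = 0.612). The NADP-linked enzymes Idh1 of the cytosol and Idh2 of mitochondria differed by 0.08 ± 0.17 and 0.00 ± 0.14 (SE, adjusted p = 0.857 and 0.994).

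From 2-oxoglutarate to succinate, 5 of 5 genes were tested and 0 passed by their brightest probe. Ogdh, the decarboxylase of the 2-oxoglutarate dehydrogenase complex, was nearly equal, with 12.97, 13.03 and 12.85 in null tissue, against 13.01, 13.01 and 12.85 in wild type tissue. The difference was -0.01 ± 0.12 (SE), with a 95% interval from -0.28 to 0.27. The succinyl-CoA ligase subunits Sucla2, Suclg1 and Suclg2 differed by 0.05, 0.06 and -0.17 (adjusted p = 0.884, 0.844 and 0.559). Of these Sucla2 was near background, detected on 2 arrays of each genotype, while Suclg1 averaged 14.69 and 14.62 in null and wild type tissue.

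Dlst, the succinyltransferase of that complex, gave opposite readings by probe. The brightest, annotated to the RefSeq transcript, had 13.22, 13.34 and 13.30 log2 in null tissue, against 13.08, 13.14 and 13.10 in wild type tissue. It was higher on every null array, by 0.18 ± 0.11 (SE, adjusted p = 0.407), and a second probe of the same transcript was higher on every null array too, by 0.24 ± 0.12 (SE, adjusted p = 0.28). Another 3 probes are annotated to Dlst through cDNA clone records. The one that passed had 7.93, 7.92 and 8.24 in null tissue, against 8.59, 8.49 and 8.72 in wild type tissue. In log2 units it fell by 0.57 (SE 0.14, limma adjusted p = 0.0316), with no overlap.

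The remaining Dlst clone probes were lower on every null array as well, by -0.55 ± 0.17 (SE, adjusted p = 0.0818) and -0.25 ± 0.14 (SE, adjusted p = 0.343). The position of the clone probes within the gene was not analysed here, so which transcript they report was not tested. The call of the clone probe ended without any 1 of wild type replicates 1, 2 and 3 or of null replicates 1 and 2 (adjusted p up to 0.122). That call also ended with neqc at an offset of 16 (adjusted p = 0.0579), with median scaling (0.124) and with no filter on dim probes (0.0863).

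**Figure D3:**
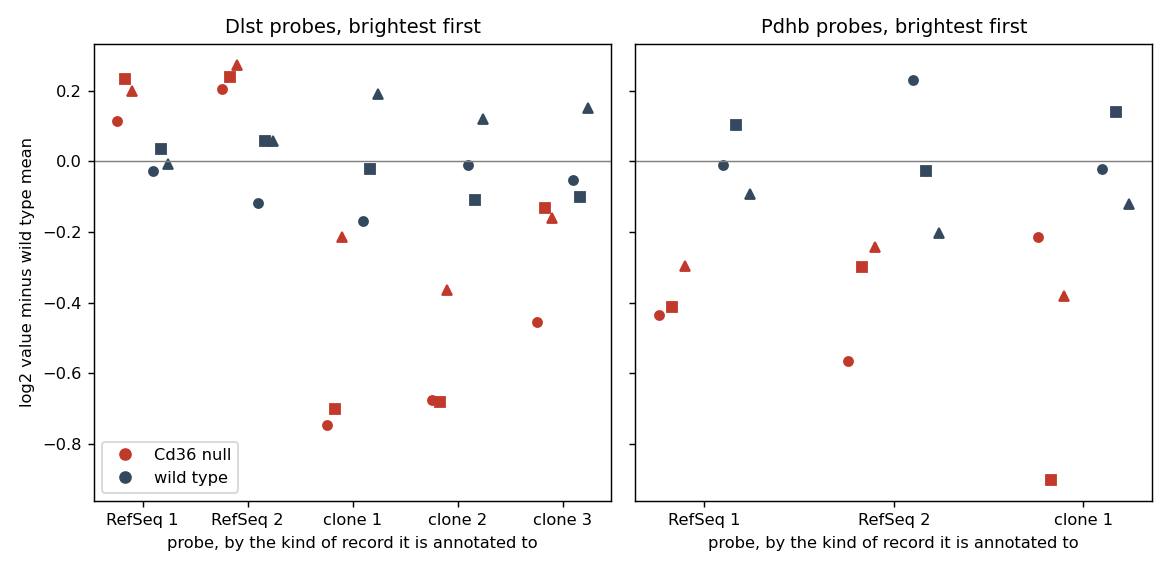
Log2 value minus the wild type mean of the same probe (y axis) for the 5 tested probes of Dlst and the 3 of Pdhb, brightest first, with circle, square and triangle for replicates 1, 2 and 3. Dlst probes annotated to its RefSeq transcript were higher and those annotated to cDNA clones lower on all Cd36 null arrays, while all 3 Pdhb probes were lower; 1 of these 8 probes, the second Dlst clone probe, passed an adjusted p of 0.05.

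Probes of 1 gene otherwise went together in most cases. Of 11 member genes with several tested probes, 7 had the same sign on all of them and 4 did not, namely Dlst, Mdh1, Pdp2 and Suclg1. In the last 3 of these the probes lay within 0.22 log2 of each other. Of the 5 tested member probes annotated to cDNA clones, 3 are those of Dlst, 1 is a Pdhb probe that went the way of the other Pdhb probes, and 1 is the Idh3a probe that differed by 0.30, like its partner.

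Succinate dehydrogenase, which is both a TCA enzyme and complex II of the respiratory chain, had 3 of 4 genes tested, with 0 rises, 0 falls and 3 not passing. Sdhd, a membrane anchor and the member whose window is shown above, had 9.99, 10.05 and 10.31 in null tissue, against 10.50, 10.41 and 10.43 in wild type tissue. It was lower on every null array, by -0.33 ± 0.13 (SE, adjusted p = 0.17). Sdhc, the other anchor, differed by -0.14 ± 0.14 and Sdhb, the iron-sulfur subunit, by -0.04 ± 0.13 (SE, adjusted p = 0.623 and 0.916). The only probe of Sdha, the flavoprotein subunit, was detected on 0 of 6 arrays, with 5.77, 5.78 and 5.85 in null tissue, against 5.78, 5.803 and 5.81 in wild type tissue, so its level was not measured.

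From fumarate to oxaloacetate, 3 of 3 genes were tested and 0 passed. Fh1, the fumarase, had 12.34, 12.45 and 12.57 in null tissue, against 13.08, 12.73 and 12.54 in wild type tissue. The groups overlapped slightly, null replicate 3 reaching above wild type replicate 3, and its probes differed by -0.33 and -0.29 (adjusted p = 0.263 and 0.278). Mdh2, the mitochondrial malate dehydrogenase, had 12.68, 12.68 and 12.82 in null tissue, against 12.86, 12.67 and 12.63 in wild type tissue, a difference of 0.01 ± 0.12 (SE, adjusted p = 0.986). The cytosolic form Mdh1 differed by 0.02 ± 0.13 (SE, adjusted p = 0.952).

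Genes around the pathway also showed few calls, all of them lower. Of 34 related genes (assembly factors of complex II, lipoate enzymes, malic enzymes, carboxykinases, carriers, transaminases and others), 30 had a probe, 24 could be tested, 0 rose, 1 fell and 23 did not pass by the brightest probe, with a median of -0.13. Of their 37 tested probes 2 were called, both lower, a larger share than the 2.85% called lower over all tested probes. At an unadjusted p under 0.05, 1 of the 37 was higher, against 11.2% of all tested probes. The 7 that were lower, with repeat probes of Slc25a1 and Slc25a11 among them, were a larger share than the 10.6% of all tested probes. Sdhaf2, which helps attach the flavin to Sdha, had 8.10, 8.43 and 8.43 in null tissue, against 8.82, 8.91 and 9.001 in wild type tissue. In log2 units it fell by 0.59 (SE 0.14, limma adjusted p = 0.0272), a call that ended without any 1 array but null replicate 3. That call also ended with neqc at an offset of 16 (adjusted p = 0.0546), with median scaling (0.11) and with no filter on dim probes (0.0778). Slc25a11, the 2-oxoglutarate carrier, fell on 1 of 3 probes, by 0.50 (adjusted p = 0.0406), while its brightest probe differed by -0.34 (adjusted p = 0.125). That call held in 5 of 14 alternatives and ended without any 1 array but wild type replicate 3. It also ended with neqc at an offset of 16, median scaling, no filter and the replicate block (adjusted p up to 0.134).

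The route that exports citrate for fat synthesis read lower without passing. Slc25a1, the citrate carrier, had 12.37, 11.94 and 12.24 in null tissue, against 12.60, 12.89 and 12.63 in wild type tissue, a difference of -0.53 ± 0.15 (SE, adjusted p = 0.0615), and a second probe gave -0.52. Acly, which splits the exported citrate, differed by -0.55 ± 0.18 (SE, adjusted p = 0.106). Glud1, which feeds 2-oxoglutarate from glutamate, differed by 0.37 ± 0.13 (SE, adjusted p = 0.121) and was higher on every null array.

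Of 13 transcription regulators of mitochondrial genes, all were tested, 0 rose, 2 fell and 11 did not pass by the brightest probe, with a median of -0.20. Over all tested probes 5.36% were called higher and 2.85% lower. Ppargc1b, a coactivator of mitochondrial genes, had 10.53, 9.85 and 10.47 log2 in null tissue, against 10.99, 11.15 and 11.04 in wild type tissue. In log2 units it fell by 0.77 (SE 0.18, limma adjusted p = 0.0294), with no overlap. Pparg, the master regulator of fat cells, had 11.54, 11.61 and 12.10 in null tissue, against 12.29, 12.37 and 12.48 in wild type tissue, again without overlap. All 3 of its tested probes fell, by 0.63, 0.71 and 1.36 (adjusted p = 0.0417, 0.0237 and 0.000604).

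The probe of Pparg that fell by 1.36 passed in 14 of 14 alternatives. The call of its brightest probe ended without any 1 array but null replicate 3, and that of Ppargc1b without any 1 array but null replicates 1 and 3, with adjusted p up to 0.148 and 0.129. Both calls also ended with neqc at an offset of 16, with median scaling and with no filter on dim probes (adjusted p up to 0.167 and 0.166). The Pparg probe that fell by 0.71 lost its call without any 1 of replicates 1 and 2 of either genotype (adjusted p up to 0.0934), with median scaling (0.0649), with no filter (0.115) and with the replicate block (0.0529). Ppargc1a, the related coactivator, differed by -0.61 ± 0.18 (SE, adjusted p = 0.0694), Ppara by -0.51 ± 0.16 (adjusted p = 0.0789) and Esrra, an estrogen-related receptor, by -0.37 ± 0.11 (adjusted p = 0.0863). Each of these was lower on every null array without passing, where 13.8% of all tested probes were lower on every null array. Esrrb, another receptor of that family, differed by 0.29 ± 0.18 and Gabpa, a factor of respiratory chain genes, by 0.12 ± 0.17 (SE, adjusted p = 0.402 and 0.743). Nrf1 and Tfam, factors of mitochondrial gene expression, differed by 0.00 ± 0.12 and -0.03 ± 0.12 (SE, adjusted p = 0.998 and 0.918).

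**Figure D4:**
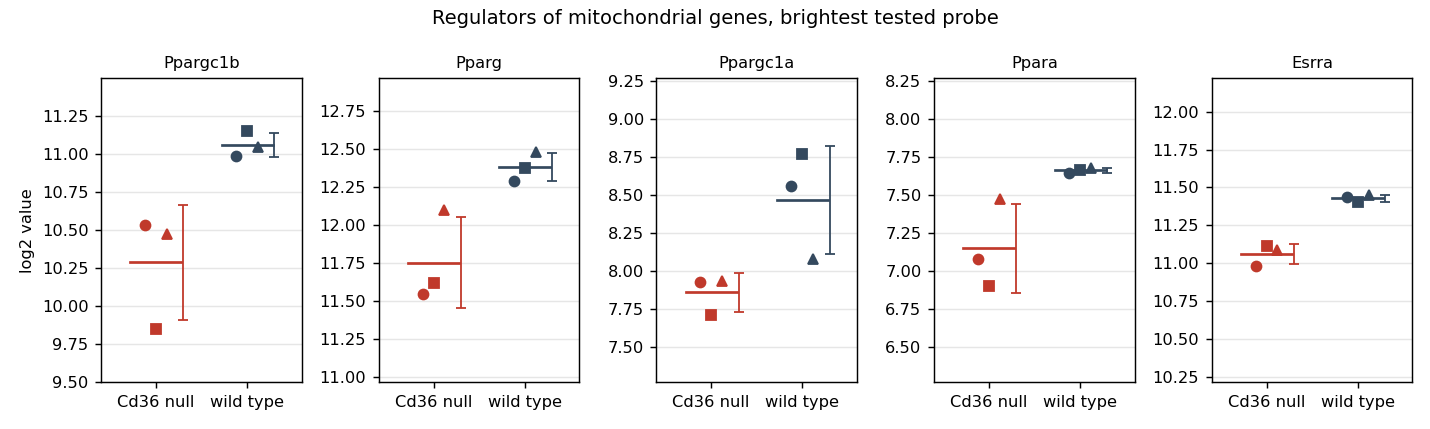
Log2 value (y axis, the same span in each panel) of 5 regulators on the 3 Cd36 null and the 3 wild type arrays, with group means as lines, SD as error bars and circle, square and triangle for replicates 1, 2 and 3. All 5 lay lower on every null array, as did 13.8% of all tested probes. Ppargc1b and Pparg passed an adjusted p of 0.05 and Ppargc1a, Ppara and Esrra did not. The 5 are a part of the 13 listed regulators. Of those not shown, Ppard and Foxo1 were lower on every null array, and Esrrb, Esrrg, Gabpa, Nrf1, Tfam and Hif1a overlapped between genotypes.

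The tissue and the arrays set limits on these values. Brown fat markers were present, Ucp1 averaging 14.79 and 14.91 log2 in null and wild type tissue (adjusted p = 0.618). Ucp1 was lower on every null array, by -0.12, as were 13.8% of all tested probes. In all 8 of 10 such markers did not pass, among them the member Pdk4 and the regulator Ppargc1a, both described above. The array's 1 probe named Cd36 lay at background (detected on no null array and 1 wild type array), so it does not check the genotype labels. Markers of some other cells moved with genotype: 9 of 10 tested macrophage markers rose (0 fell), with a summed signal of 13.94 to 14.08 log2 in null and 11.52 to 11.88 in wild type tissue. Fibroblast markers rose in 5 of 6 (13.09 to 13.61 against 12.52 to 12.68). Hepatocyte markers rose in 4 of 6 (10.95 to 14.15 against 8.83 to 9.82) and lymphocyte markers in 2 of 5 (10.03 to 10.15 against 8.92 to 9.34). The hepatocyte markers Alb, Fgb and Tat were detected on no array, and Apoh on 2 null arrays only, too few for the test. Of 4 tested endothelial markers 0 passed, and of 2 Schwann cell markers 1 rose and 1 fell. Of 12 tested muscle markers 0 passed, but their summed signal was 17.10, 16.68 and 14.99 on null replicates 1 to 3, against 16.63 to 16.72 in wild type tissue. The part of these cells in the members' values was not tested. In bulk tissue, fewer cells of a type and less RNA per cell cannot be told apart. Without null replicate 3, the array low in muscle transcripts, 3 member probes were lower and 0 higher. Without null replicate 1, the array highest in hepatocyte markers, 0 passed. The count was also 0 without null replicate 2, wild type replicate 1 or wild type replicate 2, and 1 without wild type replicate 3.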

How the data were processed

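Total RNA of brown adipose tissue was measured on 6 Illumina bead arrays. The deposited scanner table holds an intensity per probe and array on a linear scale that, per the file headers, was left unnormalised. Beside it stands the deposited detection p-value of each probe, per the file headers. The authors' deposited value table is on the log2 scale. The submitters' processing notes name limma, with no further step described. Running neqc on the scanner values with an offset of 50 gave values within 0.0240 log2 of that table, which fixes scale and direction, and its column medians were 5.92 to 5.93.

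The log2 values were used as deposited. Of 45267 probes, 34875 had 1 symbol in the platform annotation, 18 several and 10374 were not listed there. Gene IDs of 34797 probes matched RefSeq (GRCm38.p6), and 0 symbols changed. No build is named for the arrays, so coordinates are printed only for RefSeq windows. The 17912 probes detected (p under 0.05) on 3 or more arrays were fitted with lmFit and eBayes in limma 3.58.1 under R 4.3.3, as Cd36 null minus wild type with no covariate, and adjusted by Benjamini-Hochberg over all of them. A gene is represented by its brightest tested probe. Between 18139 and 19199 probes were detected on the null arrays and between 16929 and 17035 on the wild type arrays, and log2 values of tested probes correlated at 0.974 to 0.992 within and 0.962 to 0.973 between genotypes. Precision is limited by having 3 arrays per genotype.

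Values by array are given for members that passed, the 6 of next smallest p, members that differed by at least 0.5 log2 without overlap, and fixed anchors of each step. Related genes are named where they passed or were among the 4 of smallest p. Of 13 listed regulators, those that passed and 7 others, picked after their values were seen, are given with their differences. The rest are named only in a figure caption. The members, lists and tests were chosen with earlier results of these data known. Alternatives were neqc with an offset of 16, no background correction, median scaling, other filters, trend and robust estimation, array weights, a replicate block, and leaving out each array. The neqc alternative differs from the deposited values mainly in its offset, since neqc with an offset of 50 came within 0.0240 log2 of them.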

Additional observations from a re-analysis of the deposited data

How the results depend on the processing

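Of 28 member genes, 16 kept the sign of their difference in every alternative and 12 changed it in at least 1 without a call on either side. For 24 of the 28, no alternative gave a call. The number of member probes past the threshold in limma, 2 as reported, was 0 with neqc (offset 16), 0 with arrays scaled to their medians and 0 with no filter on dim probes, which tests 45267 probes. At an unadjusted p under 0.05, those 3 settings gave 7, 6 and 10 lower and 0, 0 and 2 higher, of 46, 46 and 57 member probes. Of all probes, 9.98%, 4.86% and 6.14% were lower, smaller shares than among the members, and 11.4%, 16.7% and 6.03% were higher. The number of member probes past the threshold was 5 without background correction and 7 with array weights, all lower. Leaving out 1 array gave 0 to 3. Related genes, with 2 probes past the threshold as reported, gave 0 in the first 3 settings (7, 5 and 8 lower and 2, 4 and 4 higher unadjusted), 5 with array weights and 0 to 2 with 1 array left out. Over all tested probes 1470 passed, against 849 with no filter, 2626 with array weights and 670 to 1341 with 1 array left out. The lowest counts, 670, 852 and 856, came without wild type replicate 2, null replicate 2 and wild type replicate 1. Median scaling moved the median difference of all tested probes to 0.08, from -0.04, and the share of calls that are higher to 85.6%, from 65.3% (1359 higher and 228 lower, against 960 and 510). The members' median was then -0.01, so relative to all probes they read lower under that scaling. By the probe of smallest p, 2 member genes passed in place of 1, and by the mean over all tested probes of a gene 1 passed. The cause of these changes was not tested.

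With the replicate number as a block, 3 member probes, 1 related probe and 1326 of all probes passed. Arrays of the same number correlated at 0.12, -0.02 and 0.05 in their deviations from the genotype means, and not every array correlated best with its own number, so the numbers were not taken to pair the samples. A slide or scan block was not run, since the files name neither.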

Other observations

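Some other markers of fat cells moved, in both directions, in the same tissue. Of 10 tested brown fat markers 1 rose and 1 fell. Of 5 tested markers of fat cells in general 1 rose and 1 fell as well. Elovl3, a fatty acid elongase of brown fat, had 9.85, 10.25 and 10.40 log2 on Cd36 null replicates 1 to 3, against 7.62, 7.88 and 7.96 on wild type replicates 1 to 3. Prdm16, a regulator of brown fat identity, had 7.41, 7.27 and 7.40 in null tissue, against 7.98, 7.86 and 8.02 in wild type tissue, and fell by 0.59 (adjusted p = 0.0148 in limma). Elovl3 rose by 2.35 (adjusted p = 6.24e-05). Lep, the leptin gene, fell by 1.83 (adjusted p = 0.000827), and the brightest probe of Lpl, the lipoprotein lipase, rose by 0.57 (adjusted p = 0.0174). The second tested Lpl probe differed by 0.16 (adjusted p = 0.785). By their brightest probes Adipoq, Plin1 and Fabp4 differed by 0.10, 0.11 and -0.10 without passing (adjusted p = 0.701, 0.699 and 0.8).

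Some members varied more among the null arrays than between the genotypes. Idh1 had 11.29, 11.68 and 11.96 in null tissue, against 11.56, 11.72 and 11.42 in wild type tissue. The second Idh3a probe, annotated to a cDNA clone, had 10.18, 11.04 and 11.38 in null tissue, against 10.93, 10.49 and 10.28 in wild type tissue.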
